A study of Homo sapiens with 12 samples.

Results

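hsa-miR-4521, here miR-4521, was followed across 12 small RNA libraries of 2 human gastric cancer cell lines. It was picked by name as 1 row out of the 2909 entries of the count table, because it was abundant and lower after SAHA in both lines. That choice rested on the measured levels in all 4 groups, so its fall with SAHA and its levels in the lines are described here and not tested. HGC-27, derived from a metastasis of an undifferentiated gastric carcinoma, and AGS, derived from a gastric adenocarcinoma, are established lines. Each was grown in RPMI 1640 with fetal bovine serum and given 5 µM SAHA or the vehicle DMSO for 24 h, with 3 libraries in each of the 4 groups (HGC-27 DMSO, HGC-27 SAHA, AGS DMSO, AGS SAHA). SAHA, also called vorinostat, inhibits histone deacetylases. The series asks how it changes microRNAs in gastric cancer cells. The labels do not say whether the replicates were separate cultures, so p-values speak only to the scatter among these libraries, part or all of which may be technical.

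MicroRNAs are short RNAs that are loaded into Argonaute proteins and pair with messenger RNAs through their seed, here taken as bases 2 to 8, which lowers the stability or translation of the target. Most are cut by Drosha and Dicer from hairpins transcribed by RNA polymerase II. miR-4521 is catalogued as the 5p arm of 1 hairpin, and FOXM1, a transcription factor of dividing cells, has been reported among its targets. It has also been described as a tRNA-derived small RNA (ts-101): RNA polymerase III reads past the end of a tRNA gene to a run of T residues, and the trailer behind the tRNA is cut off and released as the tRNA matures.

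The mature sequence is shown with its seed in capitals, and the hairpin with the mature RNA in capitals, because the letters around the mature RNA bear on its annotation. Both were taken from RefSeq (GRCh38.p14).
miR-4521: gCUAAGGAaguccugugcucag
MIR4521: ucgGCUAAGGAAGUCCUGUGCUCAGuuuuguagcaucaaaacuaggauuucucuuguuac
The hairpin covers chr17:8186945-8187004 on the plus strand, 60 bases, and the mature RNA is its bases 4 to 25, at chr17:8186948-8186969, 22 bases. The build used for the counts is not given in the sources used here, so the table and the annotation were joined by name and not by position. No other gene in the GENCODE 29 annotation used overlaps the hairpin, so it lies outside the exons, introns and UTRs of the genes listed there. The RefSeq tRNA gene described below overlaps it by 3 bases. The nearest protein-coding gene of RefSeq is BORCS6, a subunit of a complex that positions lysosomes. Its nearer end lies 1397 bases past the first base of the mature RNA. The nearer end of AURKB, a mitotic kinase, lies 17783 bases past that base.

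In RefSeq the serine tRNA gene TRS-GCT4-3 covers chr17:8186866-8186947, 82 bases, and therefore ends directly before the first base of mature miR-4521. The first 3 bases of the annotated hairpin lie inside the tRNA gene. The gene table used gives no strand for the tRNA gene. Of 2545 mature microRNA loci set against the 465 tRNA genes, miR-4521 was the only one within 40 bases of a tRNA gene. TRS-GCT4-3 is 1 of 8 serine tRNA genes with this anticodon and the only one of them on chromosome 17, and 18 tRNA genes lie within 100 kb of miR-4521. The 4 bases of the hairpin that follow the mature RNA are uuuu. A run of 4 U, searched for on the RNA strand directly behind the mature end, occurred at 16 of the 1939 mature loci whose hairpin reached that far (0.825%). The match is a description of the letters and not evidence of a terminator. No other of the 2370 mature names in RefSeq shares the 7 seed bases of miR-4521, so it has no seed family there.

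**Figure D1:**
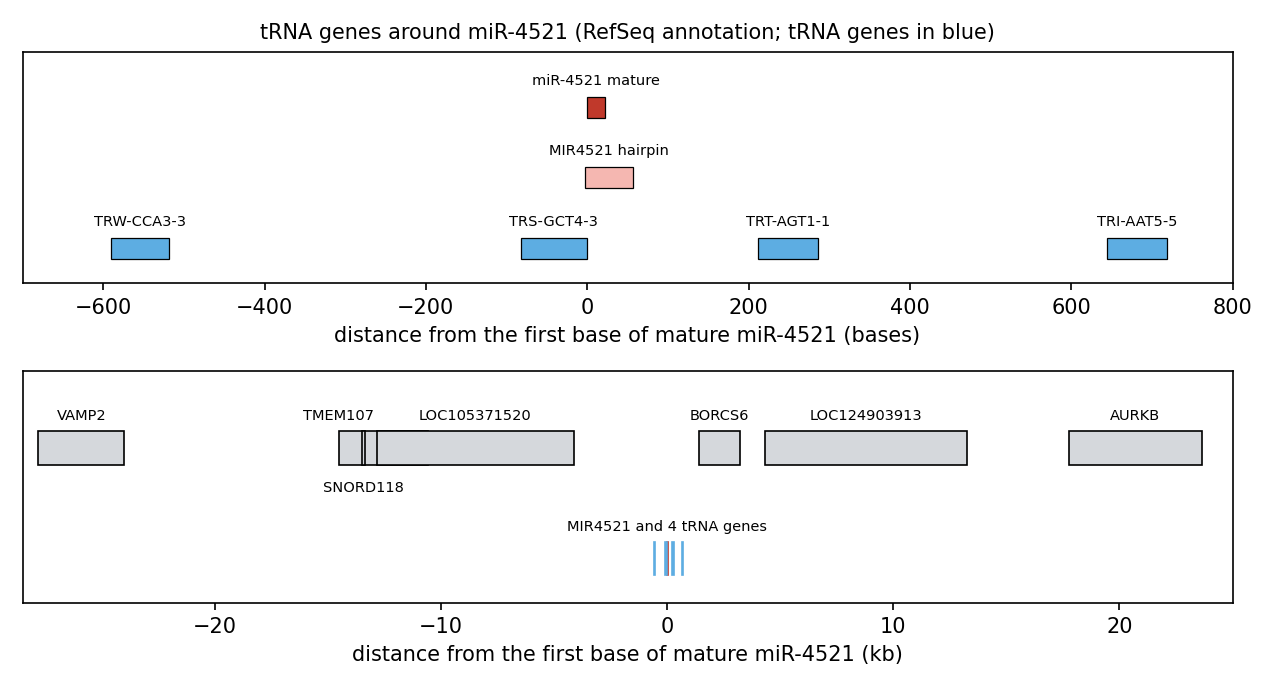
RefSeq features around miR-4521, by distance from the first base of the mature RNA, in bases (top) and in kb (bottom), with tRNA genes in blue, the mature RNA and hairpin in red and other genes in grey. TRS-GCT4-3 ends at the base before the mature RNA, and 3 more tRNA genes lie within 718 bases of that point.

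Total counts per library lay between 2665109 and 6525388, and 735 to 940 annotated microRNA names were listed per library. Levels are given as CPM, which scales the annotated microRNA counts of each library to a common total with TMM factors. Counting error on miR-4521 itself was small, at 0.842% to 2.12% of its count. HGC-27 SAHA 2 stood farthest from its replicates, with a mean difference of 0.637 (root mean square of log2 CPM over 264 microRNAs), followed by HGC-27 DMSO 1 at 0.613 and AGS DMSO 2 at 0.539. The other libraries lay between 0.299 and 0.499. Of 11 epithelial marker names 10 were in the table, with a summed level of 3413 to 4418 CPM in HGC-27 DMSO, 8344 to 8742 in HGC-27 SAHA, 4705 to 9761 in AGS DMSO and 7102 to 8596 in AGS SAHA. In HGC-27 the higher sum came mostly from miR-192-5p, at 1362 CPM with DMSO and 5674 CPM with SAHA. Of the 10 markers tested, 2 were called higher in HGC-27 and 0 in AGS, where 21.7% and 15% of all 608 microRNAs were. The summed level of the 7 blood cell markers stayed between 60.9 and 546 CPM in all 4 groups. The pair of endothelial markers, miR-126-3p and miR-126-5p, summed to 940 to 1227 CPM in HGC-27 DMSO and 1914 to 2780 in HGC-27 SAHA, and to 1258 to 2286 in AGS DMSO and 2609 to 3821 in AGS SAHA. The 6 fibroblast and smooth muscle markers summed to 163 to 1183 and 714 to 2261 CPM in HGC-27, and to 577 to 3530 and 1404 to 2027 CPM in AGS, with DMSO and SAHA in that order. The 5 markers of muscle, liver and neurons summed to 25.1 to 1129 and 66.6 to 510 CPM in HGC-27, and to 84.3 to 222 and 171 to 1174 CPM in AGS. No endothelial, fibroblast or smooth muscle marker was at 0 in a whole group. Of the blood cell markers, 1 was at 0 in AGS DMSO, and 1 of the markers of muscle, liver and neurons in HGC-27 SAHA. Among those tested, 2 of 2 endothelial and 2 of 5 fibroblast and smooth muscle markers were called higher with SAHA in each line. Of the 5 blood cell markers tested 0 were called higher, and of the 4 of muscle, liver and neurons 1 in HGC-27 and 0 in AGS. No marker was called lower with SAHA. These counts are too few to be set against the shares over all 608. The part of such markers in the level of miR-4521 was not tested, and fewer cells of a type and less RNA per cell cannot be told apart in these libraries.

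In HGC-27, miR-4521 was lower in every SAHA library than in every DMSO library. With DMSO it held 10377, 9186 and 14120 counts in replicates 1 to 3, or 2548, 2307 and 2723 CPM. With SAHA it held 2231, 3005 and 4817 counts, or 697, 1078 and 1091 CPM. The SAHA libraries thus split into 1 low value, replicate 1, and 2 close ones, and HGC-27 SAHA 2, the library farthest from its replicates, was not the extreme one for miR-4521. The group means were 2526 ± 209 CPM with DMSO and 956 ± 224 CPM with SAHA (SD, n = 3), so the SAHA mean was 37.8% of the DMSO mean. Over the 9 pairs of a SAHA and a DMSO library the SAHA level was 25.6% to 47.3% of the DMSO level. The fitted log2 fold change was -1.40 with a standard error of 0.22. For background, 248 of the 608 microRNAs tested in HGC-27 were called (40.8%), 132 higher (21.7%) and 116 lower (19.1%), and 167 had SAHA libraries all below the DMSO libraries (27.5%). With plain library totals in place of TMM scaling the calls were 144 higher and 79 lower, in place of 132 and 116.

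In AGS the groups also did not overlap, with a wider spread among the DMSO libraries. With DMSO, replicates 1 to 3 held 7575, 4816 and 6282 counts, or 2109, 1604 and 2941 CPM. With SAHA they held 2570, 3549 and 3565 counts, or 1032, 1141 and 1161 CPM, which is a narrow range. The means were 2218 ± 675 CPM and 1111 ± 69.3 CPM (SD, n = 3), so the SAHA mean was 50.1% of the DMSO mean. The 9 pairs ranged from 35.1% to 72.4%, and the highest ratios involved AGS DMSO 2, the lowest of the DMSO libraries. The fitted log2 fold change was -0.997 with a standard error of 0.22, and it was -0.74 without AGS DMSO 3 and -1.28 without AGS DMSO 2. For background, 161 of 608 were called in AGS (26.5%), 91 higher (15%) and 70 lower (11.5%), and 97 had SAHA libraries all below the DMSO libraries (16%). With plain totals the calls in AGS were 116 higher and 37 lower, in place of 91 and 70.

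**Figure D2:**
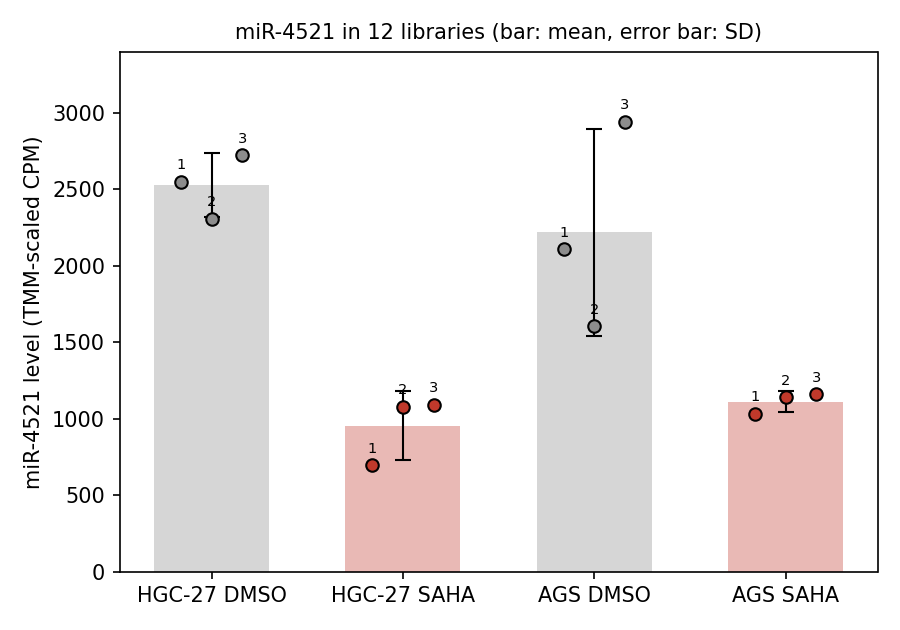
Level of miR-4521 in each library (points, numbered by replicate) in TMM-scaled CPM, with the group mean (bar) and SD (error bar), n = 3 per group. The 6 SAHA libraries lie between 697 and 1161 CPM and the 6 DMSO libraries between 1604 and 2941 CPM.

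The level of miR-4521 was compared between the lines under the same treatment as a description, since it was picked as abundant in both lines, which favours similar levels. Under DMSO the AGS libraries lay on both sides of the HGC-27 libraries. The log2 fold change of AGS against HGC-27 was -0.19 (SE 0.22, 95% interval -0.66 to 0.29), in a comparison in which 44.6% of the microRNAs tested were called. Under SAHA it was 0.22 (SE 0.22, interval -0.26 to 0.69), where 42.8% were called. Both signs rest on 1 library: the difference was 0.063 under DMSO without AGS DMSO 2, and -0.046 under SAHA without HGC-27 SAHA 1. In order of group means, HGC-27 DMSO stood highest, then AGS DMSO, AGS SAHA and HGC-27 SAHA. The libraries of neighbours on the same treatment overlapped in this order, where 55.3% of the microRNAs tested had lines that did not overlap under DMSO and 54.1% under SAHA. The fall in AGS was smaller than that in HGC-27 by 0.41 on the log2 scale with a standard error of 0.30, in a comparison in which 1.81% of the microRNAs were called. This difference is made of the values that chose the microRNA and is given without a test.

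With DMSO, miR-4521 was the 50th most abundant of the 608 microRNAs tested by group mean in each line (rank 50 in both), and with SAHA it took rank 78 in HGC-27 and rank 74 in AGS. Its rank in single libraries ran from 40, in AGS DMSO 3, to 91, in HGC-27 SAHA 1. The most abundant microRNA, miR-21-5p, stood at 289472 ± 36120 CPM in HGC-27 DMSO and 400794 ± 1657 CPM in AGS DMSO. Over all 608, the log2 fold change of miR-4521 was the 19th from the bottom in HGC-27 and the 31st in AGS (ranks 19 and 31). Among the 80 microRNAs with a mean of at least 1000 CPM over the 12 libraries, miR-4521 had the lowest log2 fold change in both lines. This place restates its choice as abundant and lower with SAHA, and it was not tested. Next in HGC-27 came miR-21-3p (-1.02), miR-20a-5p (-0.94) and miR-17-5p (-0.89), and in AGS miR-17-5p (-0.93), miR-21-3p (-0.92) and miR-20a-5p (-0.91). In AGS the step from miR-4521 to miR-17-5p was small against the standard error of miR-4521, 0.22. The lowest place held under all 19 alternatives in HGC-27 and under 17 of 19 in AGS. It was rank 7 in AGS without AGS DMSO 3 and rank 4 without AGS SAHA 1. The alternatives reuse the same libraries, so they add no support from other data.

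**Figure D3:**
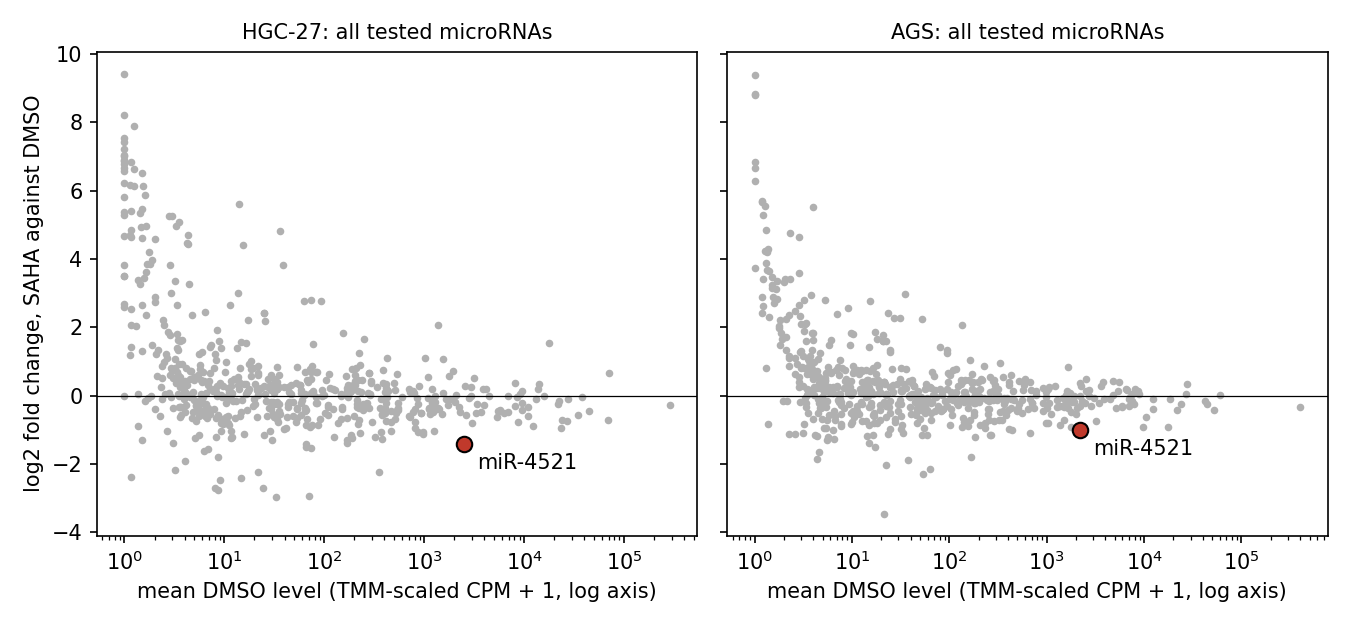
Log2 fold change of SAHA against DMSO (vertical axis) against the mean DMSO level in TMM-scaled CPM plus 1 (log axis) for the 608 microRNAs tested in each line (grey) and miR-4521 (red). miR-4521, at -1.40 in HGC-27 and -0.997 in AGS, lies below the other microRNAs of more than 1000 CPM, which its choice favours.

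The microRNAs next to miR-4521 in abundance with DMSO had smaller log2 fold changes, which the choice of miR-4521 for its fall with SAHA favours. In HGC-27, 3 of the 4 were called lower and 1 higher, where 19.1% and 21.7% of all 608 were. In AGS 0 were called lower and 1 higher, where 11.5% and 15% of all were. Calls among 4 are too few to be set against those shares. In HGC-27 the neighbours just above miR-4521 were miR-181d-5p and miR-532-5p, and those just below it miR-23b-3p and miR-196a-5p. miR-181d-5p stood at 2591 ± 87.6 CPM with DMSO and 1767 ± 25.6 CPM with SAHA, a log2 fold change of -0.55 (adjusted p = 5.7e-04). miR-532-5p rose from 2551 ± 96.9 CPM to 3117 ± 210.1 CPM, by 0.29 (adjusted p = 0.0393). Both microRNAs below it were lower with SAHA, miR-23b-3p with a log2 fold change of -0.48 (adjusted p = 0.00295) and miR-196a-5p with one of -0.34 (adjusted p = 0.0305). In AGS the neighbours were miR-186-5p, miR-183-5p, miR-340-5p and let-7c-5p. Of these only miR-183-5p was called, from 2221 ± 284 to 2892 ± 57.9 CPM (0.38, adjusted p = 0.0115), and the other three had log2 fold changes of 0.28, -0.01 and -0.31 (adjusted p = 0.330, 0.952 and 0.453). The replicates of miR-4521 were more spread than is usual at such levels in 2 groups. Its SD was 23.4% of the mean in HGC-27 SAHA and 30.4% in AGS DMSO, where the median over the 80 abundant microRNAs was 6.7% and 13.5%. In HGC-27 DMSO it was 8.27% (median 6.14%), and in AGS SAHA 6.23% (median 8.72%).

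Because of the tRNA gene beside it, miR-4521 was set beside catalogued microRNAs that have been reported as fragments of tRNAs. Of 10 such names 4 were in the table, and all 4 were tested. Their mature sequences from RefSeq, with seeds in capitals, are shown for the letters at their ends.
miR-1260a: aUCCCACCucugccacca
miR-1260b: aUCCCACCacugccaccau
miR-4454: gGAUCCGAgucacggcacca
miR-7977: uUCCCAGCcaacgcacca
All 4 hold cca within their last 4 bases, the letters with which mature tRNAs end, and miR-4521 does not. The trailer described above lies behind the tRNA, so these 4 entries are not a like comparison for it. miR-1260a and miR-1260b share a seed and most of their letters, so reads may have been split between them. In HGC-27, 2 of the 4 were called lower and 0 higher, where 19.1% and 21.7% of all 608 were, with a median log2 fold change of -0.23 against 0.08 over all. In AGS, 1 was called lower and 2 higher, where 11.5% and 15% of all were, with a median of 0.25 against 0.08. Counts of 4 are too few to be set against those shares.

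miR-4454 fell in both lines, in AGS from 166 ± 28.2 to 47.5 ± 15.3 CPM (a log2 fold change of -1.81, adjusted p = 2.5e-04) and in HGC-27 from 10.2 ± 1.40 to 5.63 ± 0.254 CPM (-0.85, adjusted p = 0.0182). The HGC-27 call did not survive leaving out replicate 1 or 2 of HGC-27 SAHA or replicate 3 of HGC-27 DMSO (adjusted p = 0.0565 to 0.0864), nor the authors' scaled table (0.115). miR-7977 fell in HGC-27 from 146 ± 17 to 91.1 ± 9.06 CPM (-0.68, adjusted p = 0.0125). Leaving out replicate 1 or 2 of HGC-27 SAHA or replicate 1 of HGC-27 DMSO ended that call (adjusted p = 0.0533 to 0.0809), as did plain totals (0.0576). In AGS miR-7977 stood at 142 ± 35.9 and 152 ± 14.6 CPM (0.10, adjusted p = 0.720). In AGS miR-1260a rose from 277 ± 20.9 to 376 ± 29.9 CPM (0.44 in log2, adjusted p = 0.0167) and miR-1260b from 408 ± 21.1 to 536 ± 58.5 CPM (0.39, adjusted p = 0.0244). These calls were weak: that of miR-1260a was lost in 6 of the 12 fits that left out 1 library (adjusted p = 0.0514 to 0.113 in those) and that of miR-1260b in 10 (0.0594 to 0.159). Of the other alternatives, 2 ended the call of miR-1260a (adjusted p up to 0.146) and 3 that of miR-1260b (up to 0.235), among them the replicate block (0.0520). In HGC-27 their log2 fold changes were 0.24 and 0.22 (adjusted p = 0.115 and 0.150).

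Within each library, the counts of miR-4521 were divided by the summed counts of these 4 entries, a ratio that does not depend on the scaling of the library. In HGC-27 the ratio was 2.77 ± 0.188 with DMSO and 0.999 ± 0.322 with SAHA (SD, n = 3), with ranges of 2.61 to 2.98 and 0.632 to 1.23. In AGS it was 2.22 ± 0.575 with DMSO and 1.00 ± 0.0537 with SAHA, with ranges of 1.68 to 2.82 and 0.941 to 1.04. The ranges did not overlap in either line. The summed level of the 4 entries was 911 ± 24.5 and 981 ± 115 CPM in HGC-27 and 993 ± 44.4 and 1111 ± 105 CPM in AGS, with DMSO and SAHA in that order. Most of that sum was miR-1260a and miR-1260b, at 339 and 416 CPM in HGC-27 DMSO and 277 and 408 CPM in AGS DMSO. Neither had a lower mean with SAHA, so the ratio says little of miR-4454 and miR-7977. The ratio shows an unequal change of its parts and uses the SAHA response that chose miR-4521, so it was not tested.

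**Figure D4:**
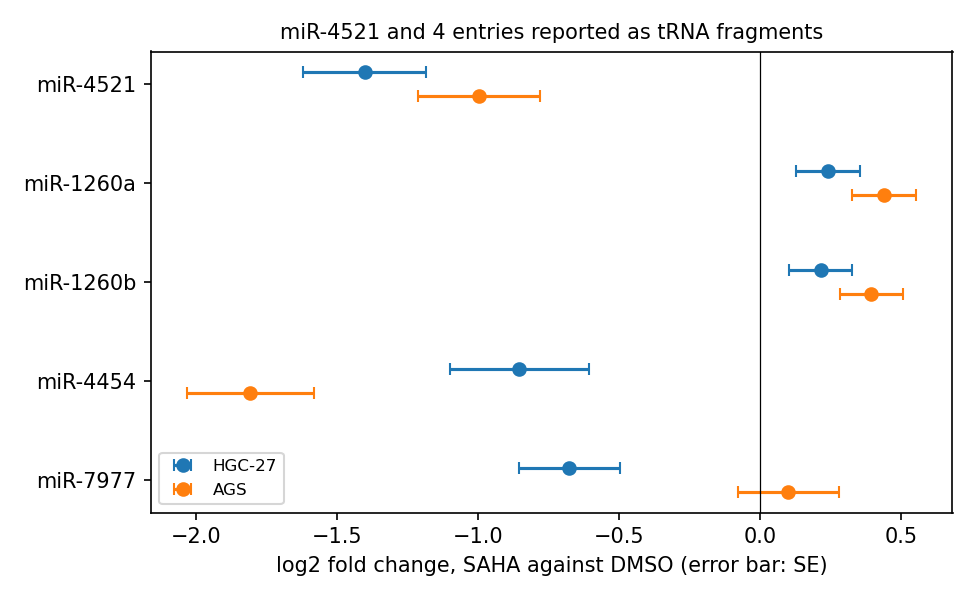
Log2 fold change of SAHA against DMSO with its standard error for miR-4521 and 4 catalogued microRNAs reported as tRNA fragments, in HGC-27 (blue) and AGS (orange). miR-4521 and miR-4454 lie below 0 in both lines, and miR-1260a and miR-1260b above 0.

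Catalogued microRNAs that overlap other kinds of small RNA were listed as well. Of 19 names 18 were in the table and 5 passed the filter on low counts: miR-1246, miR-1291, miR-664a-5p, miR-664a-3p and miR-4461. In each line 1 of the 5 was called higher and 0 lower, which is near the 21.7% called higher over all 608 in HGC-27 and the 15% in AGS. It was miR-1246, whose sequence matches part of the U2 spliceosomal RNA, at 76.0 ± 9.68 and 216 ± 38.6 CPM in HGC-27 (log2 fold change 1.51, adjusted p = 3.6e-05) and 79.7 ± 7.56 and 212 ± 13.9 CPM in AGS (1.41, adjusted p = 7.9e-05). The other four lay between log2 fold changes of -1.04 and 0.10 in HGC-27 and of -0.24 and 1.66 in AGS, and miR-664a-5p, at 0.932 ± 0.807 and 3.03 ± 2.00 CPM in AGS, was called higher in AGS only from the authors' scaled table (adjusted p = 0.0264).

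The microRNAs nearest to miR-4521 on chromosome 17 lay far from it. Within 3 Mb, 6 other names of the table were annotated, at -964 to -1169 kb from it: both arms of miR-324, miR-195 and miR-497. Of the 5 tested, 2 were called higher and 0 lower in HGC-27, and 0 higher and 1 lower in AGS. Over all 608, 21.7% were called higher and 19.1% lower in HGC-27 and 15% and 11.5% in AGS. Counts among 5, some of them arms of the same hairpin, are too few to be set against those shares. The median log2 fold change of the 5 was 1.29 in HGC-27 and -0.44 in AGS. miR-324-3p, the most abundant, stood at 32.3 ± 2.60 and 37.2 ± 6.28 CPM in HGC-27 and at 28.1 ± 2.06 and 35.4 ± 4.32 CPM in AGS (adjusted p = 0.351 and 0.182). miR-324-5p was at 20.6 ± 3.02 and 22.7 ± 1.81 CPM in HGC-27 (adjusted p = 0.717) and at 18.3 ± 6.83 and 19.9 ± 4.59 CPM in AGS (adjusted p = 0.780). The 2 higher ones in HGC-27 were miR-195-3p (log2 fold change 2.73, adjusted p = 0.00135) and miR-497-5p (1.85, adjusted p = 0.0044), which stem from neighbouring hairpins. miR-497-5p had a log2 fold change of -0.44 in AGS (adjusted p = 0.432). miR-195-5p had 1.29 in HGC-27 (adjusted p = 0.0945) and -0.78 in AGS (adjusted p = 0.332). miR-195-3p was the 1 lower in AGS (-1.38, adjusted p = 0.0378), a call lost in 6 of the 12 fits that left out 1 library (adjusted p = 0.0540 to 0.128) and under 3 other alternatives (up to 0.0783), among them the replicate block (0.0589).

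The microRNAs whose profile was most like that of miR-4521 were found by the root mean square difference of log2(CPM + 1), each centred on its own mean over the 12 libraries, among the 263 others with a mean of at least 50 CPM. They were let-7b-3p (0.222), miR-25-5p (0.226), miR-374b-3p (0.301), miR-125b-2-3p (0.367) and miR-1296-5p (0.371), where the median over the 263 was 0.764. All 12 points share the library scaling. The same 5 were nearest without HGC-27 SAHA 2. With each line centred apart, let-7b-3p (0.212) and miR-25-5p (0.226) were again the nearest and miR-335-3p (0.238) the third. Mature sequences were at hand for 4 of the 5 and are given to compare their seeds, in capitals.
let-7b-3p: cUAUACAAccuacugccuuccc
miR-25-5p: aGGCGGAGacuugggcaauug
miR-374b-3p: cUUAGCAGguuguauuaucauu
miR-125b-2-3p: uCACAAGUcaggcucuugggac
None of these seeds equals that of miR-4521 or of another of the 4. The 4 lie on chromosomes 22, 7, X and 21, apart from miR-4521.

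Those 4 are the less abundant arms of their hairpins, the strand that is mostly discarded when the other arm is loaded. Over the 12 libraries, let-7b-3p had 1.63% of the level of let-7b-5p, miR-25-5p 1.6% of miR-25-3p, miR-374b-3p 8.39% of miR-374b-5p and miR-125b-2-3p 18.0% of miR-125b-5p, which also comes from another hairpin. Being near in profile to a microRNA chosen for its fall, they were lower with SAHA: let-7b-3p went from 188 ± 13.7 to 79.2 ± 3.29 CPM in HGC-27 and from 154 ± 17.8 to 82.2 ± 10.6 CPM in AGS. The log2 fold changes of let-7b-3p, miR-25-5p, miR-374b-3p and miR-125b-2-3p were -1.25, -1.30, -1.37 and -1.20 in HGC-27 and -0.90, -0.77, -0.78 and -0.57 in AGS. Their more abundant arms changed less, which the choice of these 4 for their nearness to miR-4521 favours. let-7b-5p had log2 fold changes of -0.60 in HGC-27 and -0.31 in AGS, miR-25-3p -0.30 and -0.03, miR-374b-5p -0.39 and -0.12, and miR-125b-5p -0.16 and 0.00. Of these 4 arms, 3 were called lower in HGC-27 (adjusted p = 0.00191, 0.0171 and 0.0279 in the order given) and 0 in AGS (0.0689 to 0.999), where 19.1% and 11.5% of all 608 were called lower. Calls among 4 arms are too few to be set against those shares. miR-1296-5p and miR-335-3p differ in this respect, since each is the more abundant arm of its hairpin. Here the less abundant arm was not called lower in either line. miR-335-5p had log2 fold changes of -0.01 in HGC-27 and -0.19 in AGS (adjusted p = 0.979 and 0.659). miR-1296-3p, with a mean of only 3.43 CPM, had 1.33 and 4.30 (adjusted p = 0.111 and 0.00138). miR-1296-5p stood at 167 ± 16.3 CPM with DMSO and 106 ± 14.5 CPM with SAHA in HGC-27, and at 181 ± 29.8 and 77.9 ± 15.5 CPM in AGS. miR-335-3p, at 978.5 ± 25 and 453 ± 29.2 CPM in HGC-27 and 1382 ± 121 and 763 ± 17.3 CPM in AGS, was nearest to miR-4521 in abundance among these. The difference between the arms was not tested.

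**Figure D5:**
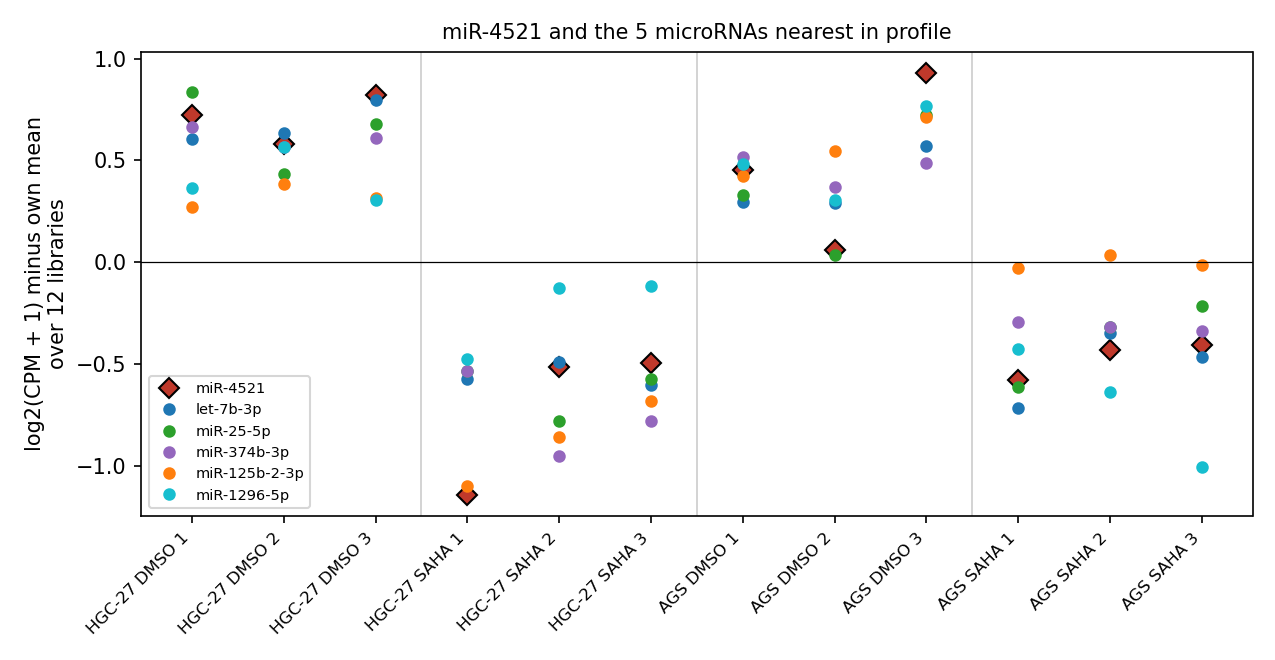
Log2(CPM + 1) of miR-4521 (red diamonds) and of the 5 microRNAs nearest to it in profile (circles) in each library, minus each microRNA's own mean over the 12 libraries. In all 4 groups miR-4521 lies on the same side of its mean as let-7b-3p and miR-25-5p, which differ from it by 0.222 and 0.226 on average (root mean square).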

How the data were processed

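The authors deposited whole-number tag counts, with all isoforms summed per mature microRNA and hairpin per the file headers, and a score, their own scaling of these counts to CPM rounded to whole numbers (column sums 983286 to 991838). The submitters' processing notes name cutadapt and Novoalign 2.07.11. RNA was taken up in TRIzol and prepared with a NEBNext kit for small RNA, per the labels. Not given in the sources used here were the aligner's settings, genome build, microRNA release and strand rule. The sources used here mention no molecular identifiers, so intervals and counting errors cover counting only. The smallest listed count was 2 and blanks were read as 0, which does not touch miR-4521.

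Of 2909 entries, 2049 were annotated (1906 names). For 111 names with several hairpins, the one with the highest total was kept. The 860 predicted entries entered an alternative only. Counts were fitted with edgeR 4.0.16 in R 4.3.3: TMM, filterByExpr over the 4 groups (608 microRNAs), 1 coefficient per group, quasi-likelihood test, 8 residual degrees of freedom, Benjamini-Hochberg adjustment over all 608, calls at adjusted p under 0.05. Standard errors were derived from the fitted change and its F statistic. The script was tested on simulated data. limma 3.58.1 (on the authors' scaled table, log2(value + 1)) and DESeq2 1.42.0 served as alternatives. Of the 1906 names, 1685 matched RefSeq sequences.

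The microRNA, the lists and the tests were chosen with earlier results of these data known. A test of miR-4521 between the lines had been planned, and its p-value is not given because the choice used the levels in all groups. Beside miR-4521, microRNAs were named as the 5 nearest in profile (3 with each line centred apart), the 2 above and 2 below it in DMSO level, chromosome 17 neighbours within 3 Mb, and members of 2 lists of entries overlapping tRNAs or other small RNAs. miR-21-5p, miR-21-3p, miR-20a-5p and miR-17-5p, the other arms and miR-760 were named after their values were seen.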

Additional observations from a re-analysis of the deposited data

Results flagged for a closer look

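One of the chromosome 17 neighbours, miR-195-3p, responded differently in the lines by a test of the difference itself. It stood at 1.01 ± 0.665 CPM with DMSO and 6.78 ± 1.04 CPM with SAHA in HGC-27, and at 13.9 ± 3.62 and 5.34 ± 2.72 CPM in AGS (SD, n = 3), so the response in AGS minus that in HGC-27 was -4.11 on the log2 scale (SE 0.65, adjusted p = 0.0100, edgeR's interaction test). It rested on 2 to 7 counts per library in HGC-27 DMSO and 10 to 55 in the other groups. The difference was called under 18 of 19 alternatives, with values from -4.78 to -3.34 and adjusted p from 7.5e-06 to 0.0535, the last without HGC-27 DMSO 3. In this comparison 11 of the 608 microRNAs were called (1.81%). No group is large enough for a check of single outlying libraries.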

How the results depend on the processing

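The log2 fold change of miR-4521 in HGC-27 ran from -1.52 to -1.20 when 1 library was left out and from -1.53 (no filter) to -1.28 (plain library totals) under the other alternatives. In AGS these ranges were -1.28 to -0.74 and -1.21 (with predicted entries) to -0.78 (the authors' scaled table). With the replicate block the values were -1.41 and -0.97. Plain totals moved the median of all microRNAs to 0.19 in HGC-27 and 0.26 in AGS, where miR-4521 stood at -1.28 and -0.80. The difference of the responses ran from 0.06 (without AGS DMSO 2) to 0.71 (without AGS DMSO 3). The sign of AGS against HGC-27 turned without AGS DMSO 2 under DMSO (0.063, range with 1 library left out -0.55 to 0.063) and without HGC-27 SAHA 1 under SAHA (-0.046, range -0.046 to 0.28), and the cause was not tested. With 1 library left out, where fewer samples enter the fit, the count of calls ran from 163 (without HGC-27 DMSO 3) to 257 in HGC-27, in place of 248, and from 97 (without AGS DMSO 1) to 180 in AGS, in place of 161, with 100 without AGS SAHA 1 and 104 without AGS SAHA 2. In those fits AGS against HGC-27 gave 228 to 289 under DMSO and 230 to 267 under SAHA. With predicted entries more features were tested, and 432 in place of 271 were called between the lines under DMSO. For the other microRNAs, 40 results were followed through the alternatives, which gave 760 outcomes, each of 1 result under 1 alternative. Of these outcomes, 47 ended a call, 3 made one and 710 did neither. Same-numbered libraries had correlated deviations of -0.310 to 0.0749 in HGC-27, -0.123 to 0.0235 in AGS, -0.0955 to 0.248 between the lines under DMSO and -0.0766 to 0.507 under SAHA. In no set were all 3 over 0.1, so the numbers were not taken as pairs. The replicate block gave 218 calls in HGC-27, and 264 under DMSO and 250 under SAHA between the lines.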

Other observations

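The tested microRNA with the next shortest distance to a RefSeq tRNA gene was miR-760, on chromosome 1, 674 bases from TRR-TCT1-1. Its mean level was 45.4 CPM, and its log2 fold change with SAHA was -0.84 in HGC-27 (SE 0.16, adjusted p = 0.00209) and -0.53 in AGS (SE 0.17, adjusted p = 0.0378). miR-1285-3p, 3872 bases from TRG-CCC2-1 on chromosome 2, stood at 19.0 CPM and was not called in either line (0.04, adjusted p = 0.882, and -0.14, adjusted p = 0.620). These values were not recomputed under the alternatives.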
